A study of Mus musculus with 4 samples.

Results

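Malat1, Neat1, Meg3, Kcnq1ot1, H19 and Miat are 6 long noncoding RNAs that stay largely in the nucleus or come from imprinted loci. Their N6-methyladenosine (m6A) was read from lists of single adenosines called as modified in mouse retinal organoids at day 4 of differentiation. A site was counted for a gene when its position and strand fell inside the span that the lists give to that gene. Under this rule 3 of the 6 genes had sites: Malat1 with 187, Meg3 with 228 and Kcnq1ot1 with 144 distinct positions, 559 of 881997 in all. Neat1, H19 and Miat have no span of their own in the lists, so under the rule they were not seen. RefSeq gene order placed 1 stretch of sites at each of these 3 loci, and these stretches are reported apart from the rule, as the Neat1, H19 and Miat intervals, with 257 further positions.

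The wild-type group comprised 2 libraries of the Rx:GFP line, which carries a green fluorescent reporter of the eye field gene Rax. The Mettl3 knockout (KO) group comprised 2 libraries of a line that also carries a doxycycline-inducible, HA-tagged METTL3. Both groups grew in medium with AGN at 0.1 µM, no further treatment is labelled, and all 4 libraries carry the same batch label. Whether replicates came from separate cultures, and whether each line is 1 clone, is not given in the sources used here, so p-values measure only the spread between these libraries.

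METTL3 is the catalytic subunit of the methyltransferase that writes m6A on RNA made by RNA polymerase II. GLORI reads the mark by deaminating unmodified adenosine, which is then sequenced as G, while m6A is still sequenced as A. The level of a site is therefore the share of its reads with A among reads with A or G. Unmodified adenosine that escapes deamination also counts as A, so a listed site need not be m6A. Each list holds only sites with a level of at least 0.1, at least 15 reads, at least 5 reads with A and a p-value of at most 0.004, so a site missing from a list missed at least 1 of these limits and need not be unmodified. Malat1 resides in nuclear speckles and Neat1 is the scaffold of paraspeckles. Meg3 and H19 are expressed from the maternal chromosome, while Kcnq1ot1 is expressed from the paternal chromosome and silences neighbouring genes. Miat is a nuclear RNA of neural tissue, including the retina.

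Meg3 and H19 are also hosts of microRNAs, and the mature sequences below are shown because the lists name many Meg3 and H19 entries after these microRNAs. They are from RefSeq (GRCm38.p6), written 5′ to 3′ with the seed, bases 2 to 8, in capitals. The 5 seeds all differ.
mmu-miR-1906 (Mir1906-1, in Meg3): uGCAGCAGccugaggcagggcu
mmu-miR-770-5p (Mir770, in Meg3): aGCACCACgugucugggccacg
mmu-miR-770-3p (Mir770, in Meg3): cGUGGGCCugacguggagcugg
mmu-miR-675-5p (Mir675, in H19): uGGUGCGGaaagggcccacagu
mmu-miR-675-3p (Mir675, in H19): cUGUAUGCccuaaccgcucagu

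Listed sites numbered 227298 and 288516 for wild type against 230299 and 215850 for KO, with a median coverage of 38 to 41 reads. The targeted gene, Mettl3, had a gene coverage of 50.6 and 45.9 in wild-type organoids against 62.0 and 48.3 in KO organoids. Which part of the gene was altered is not given in the sources used here, so this coverage does not check the label. Over 9920 genes or gene blocks with a coverage in all lists, 2.96% fell and 2.51% rose. The eye field gene Six3 stood at 15.9 and 17.2 times the median gene for wild type against 1.75 and 2.40 times for KO (log2 difference -3.01, limma adjusted p = 4.05e-06). Of 6 eye field markers 2 had a gene coverage in all lists, Six3 and Lhx2, and both fell, with a summed coverage of 20.0 and 21.7 times the median gene for wild type against 2.36 and 3.02 times for KO. Of 5 early neural markers 3 were measured and 0 called, and of 6 pluripotency or epiblast markers 4 were measured and 3 fell, their summed coverage being 5.42 and 5.84 times the median gene for wild type against 3.58 and 2.94 times for KO. Of the eye field genes without such a coverage, Rax had 20 and 35 wild-type sites and 0 in each KO library, Pax6 had 48 and 70 against 47 and 44, and Six6 had 0 in every library. Pax3, a dorsal neural gene, had 0 in each wild-type library and 36 and 12 KO sites. Of 7 mesoderm or endoderm markers, none had a gene coverage in all 4 lists, and T and Mixl1 had 0 sites. The groups thus differed in some eye field and pluripotency genes as well as in genotype, and the part of this in the results below was not tested.

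Across Malat1, Meg3 and Kcnq1ot1 together, more sites were listed without Mettl3 than with it, but fewer sites with at least 100 reads. The wild-type libraries listed 137 and 154 sites in the 3 genes and the KO libraries 157 and 169. The means were 145.5 ± 12.0 and 163 ± 8.49 (SD, n = 2 each), and the two-sided exact permutation p of 0.333 is the smallest that 2 libraries against 2 allow. Of the 3 genes only Kcnq1ot1 had more sites in both KO libraries, as did 11.4% of all genes. Sites with at least 100 reads numbered 57 and 61 for wild type against 45 and 40 for KO (exact permutation p = 0.333). How many genes over the series had fewer such sites in both KO libraries is not given here. Counting all listed sites, 24.9% did. Most positions were seen once: 508 of the 559 (90.9%) were in 1 library only, against 91.9% over the whole series. The wild-type pair shared 19 sites (13.9% and 12.3% of each list's member sites) and the KO pair 11 (7.01% and 6.51%). Over all genes the wild-type pair shared 12.6% and 9.94% of their lists and the KO pair 5.16% and 5.50%. The counts thus hold mostly positions that no other library listed.

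**Figure D1:**
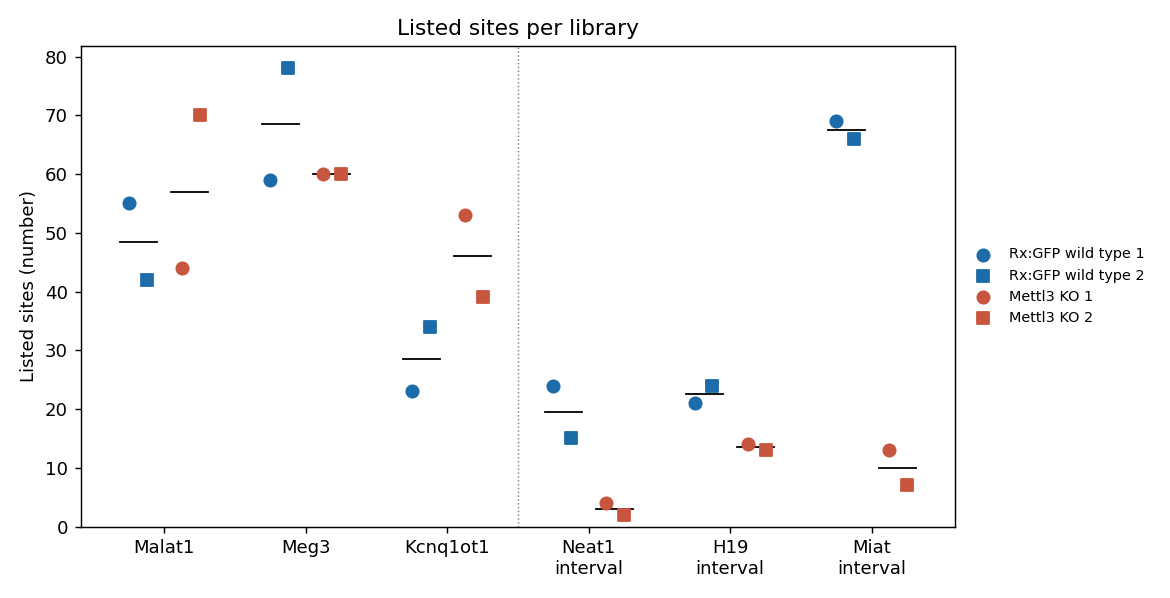
Number of listed sites (vertical axis) in each gene or interval, with 1 point per library and a black bar at the mean of each group; genes placed by the rule are left of the dotted line and intervals right of it. Kcnq1ot1 went from 23 and 34 wild-type sites to 53 and 39 KO sites, while the Miat interval went from 69 and 66 to 13 and 7 (exact permutation p = 0.333 for each).

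Meg3 held the most deeply read shared wild-type sites of the group, and some of these were missing from both KO lists while others were listed there. Meg3 (ENSMUSG00000021268) spans chromosome 12, 109506879 to 109538165, plus strand, in the lists' coordinates. At 109510201, 3322 bases from the 5′ end, the level was 0.414 and 0.446 in the wild-type libraries at 760 and 858 reads, and neither KO list held the site. At 109510161, 40 bases upstream, it was 0.258 and 0.298 at 1024 and 1109 reads, again with no KO entry. Both wild-type libraries thus held both positions and no KO library held either.

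The coverage to be had in the KO libraries was estimated from the wild-type coverage of the site and the change in coverage of the whole gene. It came to 739 and 473 reads at 109510201 and to 975 and 624 reads at 109510161. The nearest listed KO site gave less: it lay 33 bases past 109510201 in KO library 2, with 113 reads at a level of 0.133. KO library 1 listed nothing within 100 bases of either position. The estimates and the 113 reads are all above the 15 reads that a listed site needs.

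Another shared Meg3 site lay in the hairpin of Mir1906-1. Position 109510469 is base 46 of the 80-base hairpin, and mature miR-1906 begins at base 48. Its level was 0.187 and 0.272 at 171 and 232 wild-type reads, with 183 and 117 reads estimated in the KO libraries and no KO entry. In KO library 2 the nearest listed site was 14 bases away with 45 reads at a level of 0.178. Of the entries inside Meg3, 162 of 257 carried the name Mir1906-1 in the lists. A further 38 carried Mir770, 30 carried Mir673, whose sequence is not shown above, and 3 carried Meg3. Most of these sites are thus not found under the name of the host gene. Inside the Mir1906-1 hairpin itself lay 5 entries, and none lay inside that of Mir770.

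Other Meg3 sites were also listed in the KO. Position 109514045 was in all 4 lists, at 0.137 and 0.155 in the wild-type pair (496 and 679 reads) against 0.125 and 0.106 in the KO pair (530 and 208 reads). Both KO libraries were lower, by a log2 odds difference of -0.37 (edgeR quasi-likelihood adjusted p = 0.839). Position 109514158 was at 0.111 and 0.100 in wild-type RNA (810 and 1068 reads) versus 0.137 and 0.110 in KO RNA (614 and 464 reads), with a difference of 0.26 (edgeR adjusted p = 0.864). There the groups overlapped: 1 KO library was above both wild-type libraries and the other lay between them. Over the series 40 of 1557 such sites were called (2.57%, all lower in the KO), and 0 of the 2 member sites were. At an unadjusted p under 0.05 there were 120 sites (7.71%), again without either Meg3 site.

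Summed over both positions, Meg3 stood at 0.121 in each wild-type library and at 0.131 and 0.109 in the KO libraries (log2 odds difference -0.01, edgeR adjusted p = 1.00). The wild-type values lay between the KO values. This test and that of single sites took only sites in all 4 lists. A site that fell below the level limit in a KO library could not enter. The result therefore covers these 2 positions and not the level of Meg3 as a whole. Of 827 genes tested in this way 46 were called (5.56%), 5.2% lower and 0.363% higher in the KO, and 10.3% had an unadjusted p under 0.05. The 2 sites lay at 7166 and 7279 bases from the 5′ end, within the part of Meg3 that held most sites in every library. Malat1 and Kcnq1ot1 had no site in all 4 lists and could not be tested.

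Along Meg3, sites of every library crowded into the first 10000 bases. The first 5000 bases held 19 and 14 wild-type sites and 11 and 19 KO sites, and the next 5000 held 21 and 33 against 32 and 28. Towards the 3′ end, from 25000 to 30000 bases, there were 10 and 14 wild-type sites and 3 and 0 KO sites, a stretch in which the groups did not overlap (chosen after the counts were seen). Total Meg3 sites numbered 59 and 78 for wild type against 60 and 60 for KO, with overlapping groups (exact permutation p = 1.00). Sites with a level of at least 0.3 numbered 16 and 20 in wild-type organoids against 12 and 6 in KO organoids (exact permutation p = 0.333). Counting all listed sites, 24.9% of genes were lower in both KO libraries. That share is not given here for this level or for single stretches, so neither count is set apart from other genes. The median level was 0.204 and 0.1995 in the wild-type pair against 0.197 and 0.160 in the KO pair, both KO libraries lying below. Over all listed sites of the series both KO medians were lower too, at 0.213 and 0.232 against 0.246 and 0.241.

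**Figure D2:**
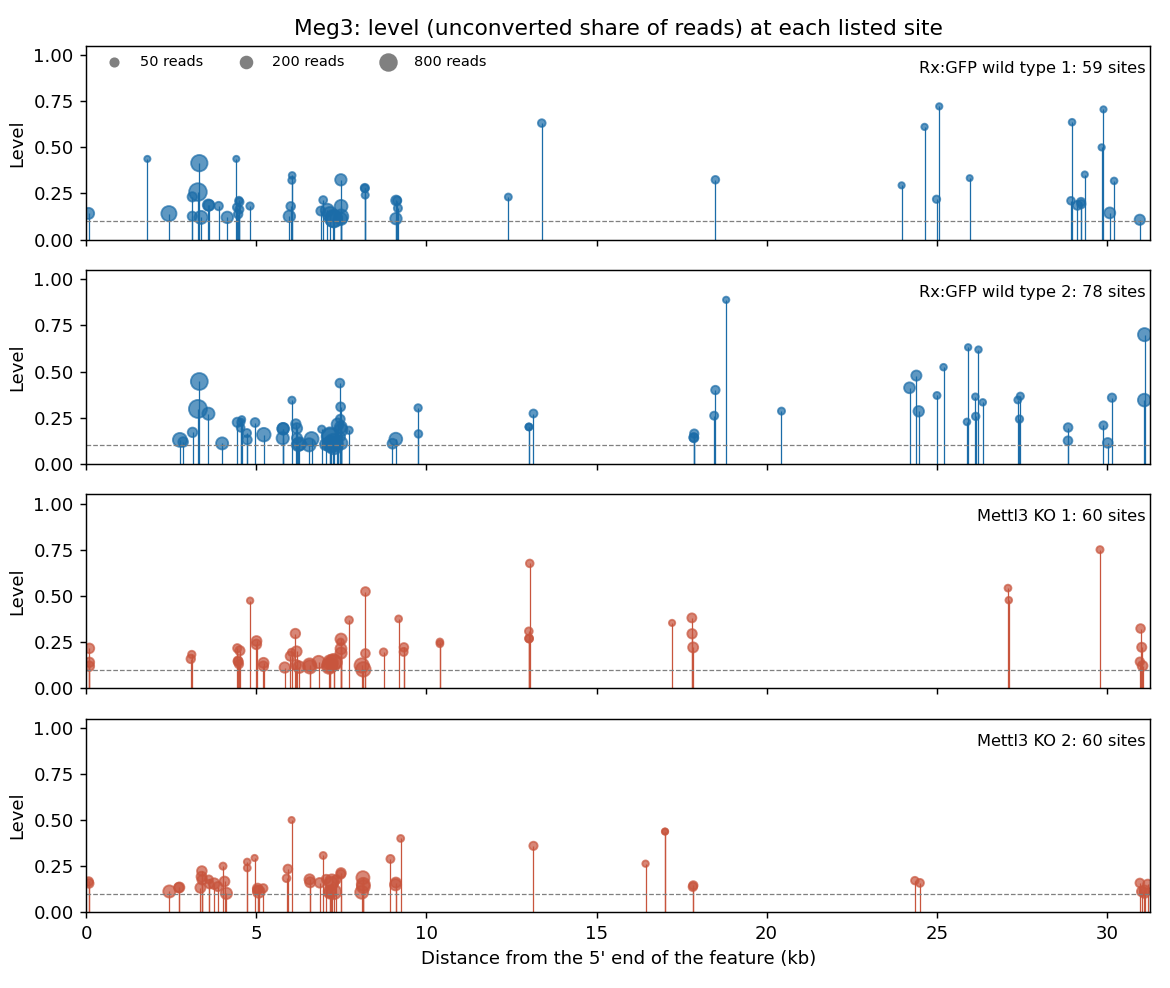
Level at each listed Meg3 site (vertical axis, share of reads with A) against distance from the 5′ end of the gene in kb, with 1 panel per library and larger points for higher coverage; the dashed line is the lower limit of the lists, 0.1. The pair of well-covered points near 3.3 kb, at 0.414 and 0.446 for the higher one, appears in both wild-type panels and in neither KO panel.

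At the extreme 3′ end, 1 Meg3 position differed widely between single libraries. Position 109537991 had a level of 0.700 at 317 reads in wild-type library 2 and 0.104 at 96 reads in KO library 2. Wild-type library 1 and KO library 1 did not list it, so the difference has no replicate in either group.

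Malat1 was densely covered, and its listed levels were low. A listed site needs at least 5 reads with A, so low levels are listed only where coverage is high. The part of depth in these levels was not tested. Malat1 (ENSMUSG00000092341) spans chromosome 19, 5845717 to 5852706, minus strand. The median coverage of its sites was 126 and 137 reads in wild-type RNA versus 110 and 56.5 in KO RNA, while the median level was 0.136 and 0.135 for wild type against 0.128 and 0.180 for KO. KO library 2 was the shallowest on Malat1 and had the highest median level and the most sites. Sites numbered 55 and 42 in wild-type organoids against 44 and 70 in KO organoids, with overlapping groups (exact permutation p = 0.667). Sites with at least 100 reads numbered 37 and 28 in the wild-type pair against 23 and 15 in the KO pair (exact permutation p = 0.333). The share of all genes with this pattern at 100 reads is not given here. For all listed sites it was 24.9%.

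The wild-type libraries shared 8 Malat1 sites, and 7 of them (87.5%) were in neither KO list, against 81.3% over all genes. The deepest was 5849777, 2929 bases from the 5′ end, at 0.210 and 0.139 with 638 and 718 reads. An estimated 537 and 322 KO reads were to be had there, and the nearest KO entry, 69 bases away in KO library 2, had 89 reads. Position 5848780 was at 0.136 and 0.114 with 501 and 511 reads and was also absent from both KO lists. Those levels were close to the limit of the lists, 0.1, so a small drop would leave the site out. Here KO library 2 listed a position 3 bases away with 229 reads at a level of 0.100, close to the 241 reads estimated, so this stretch was well read in that library. The other 3 sites named by rule and absent from the KO had mean wild-type levels of 0.139 to 0.203.

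The exception was Malat1 5848295. Its level was 0.103 and 0.151 in wild-type RNA at 291 and 212 reads but 0.302 in KO library 2 at 116 reads, with no entry in KO library 1. The 1 listed KO value was above both wild-type values. The KO pair shared 2 Malat1 sites that no wild-type list held, 5850568 at 0.238 and 0.250 and 5852170 at 0.120 and 0.284. High single-library values also occurred among wild-type sites: 5851453 was at 0.826 with 402 reads in library 2 and in no other list.

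**Figure D3:**
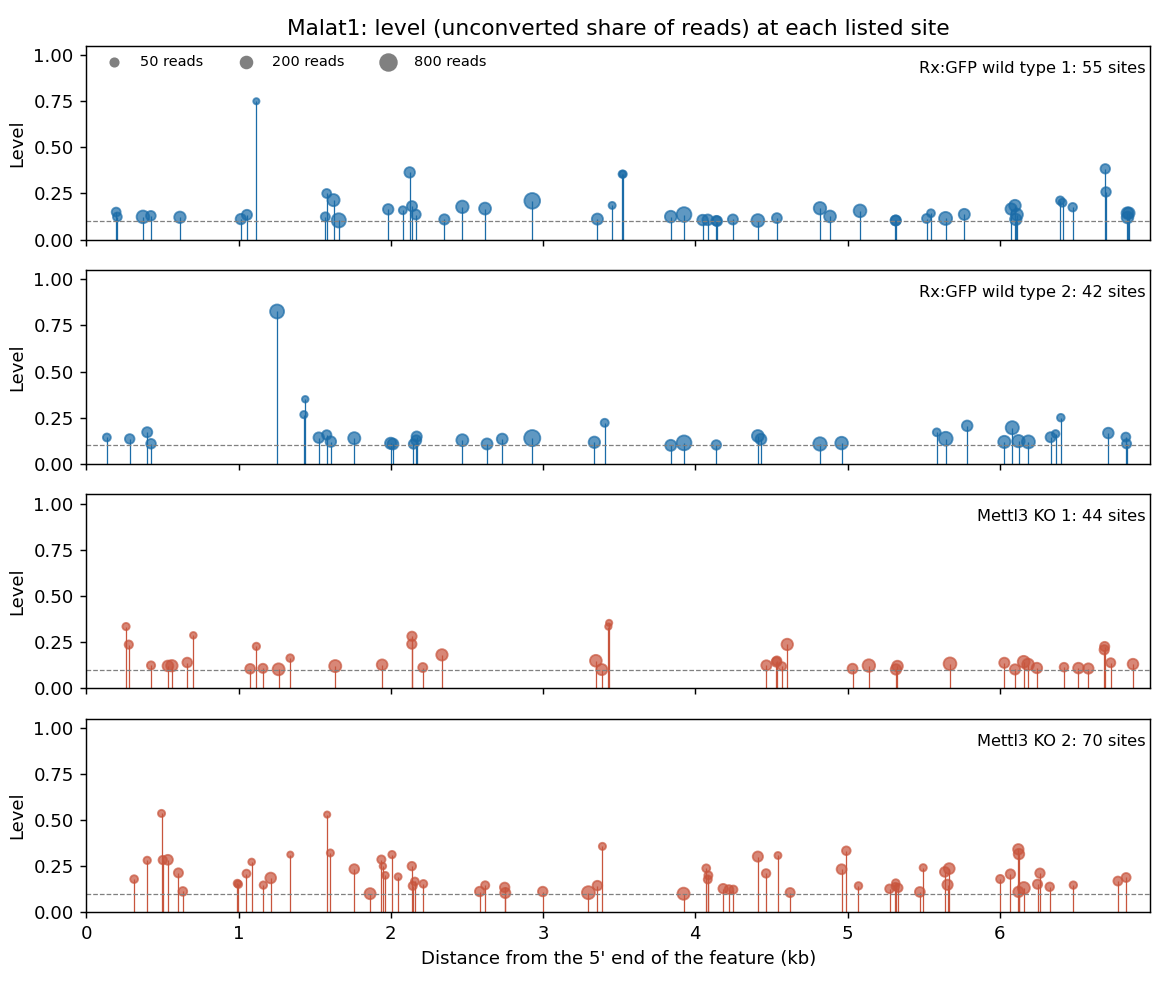
Level at each listed Malat1 site (vertical axis, share of reads with A) against distance from the 5′ end of the gene in kb, with 1 panel per library and larger points for higher coverage; the dashed line is the lower limit of the lists, 0.1. Sites spread over the whole RNA in all 4 libraries, and most lie near the limit, with medians of 0.136 and 0.135 in wild-type RNA versus 0.128 and 0.180 in KO RNA.

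Kcnq1ot1 had more sites in the KO. Kcnq1ot1 (ENSMUSG00000101609) spans chromosome 7, 142731562 to 142850286, minus strand. It had 23 and 34 sites for wild type against 53 and 39 for KO, so both KO libraries were above both wild-type libraries (exact permutation p = 0.333). Over all genes with a coverage in each list this pattern held for 11.4%. Most of the difference lay in the first 20000 bases, with 5 and 11 wild-type sites and 26 and 14 KO sites, while the next 20000 held 16 and 22 against 18 and 19. With site coverage of at least 50 reads the mean difference shrank from 17.5 sites to 6.5.

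Levels in Kcnq1ot1 rested on few reads. The median coverage of its sites was 20 and 22.5 reads in wild-type organoids against 30 and 25 in KO organoids, and the median level was 0.524 and 0.346 in the wild-type pair against 0.333 and 0.385 in the KO pair, with overlapping groups. The wild-type pair shared position 142813317, 36969 bases from the 5′ end, at 0.377 and 0.455 with 61 and 44 reads. No KO list held it, where 64.6 and 67.7 reads were estimated. Position 142844731 was read as fully unconverted, a level of 1.00, at 40 reads in wild-type library 1 and at 0.110 with 82 reads in KO library 1, without an entry in the other two libraries. On the opposite strand of the Kcnq1ot1 span 2 entries were found, both in KO library 2.

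Per kilobase, the density of sites was 7.87 and 6.01 in wild-type RNA versus 6.29 and 10.0 in KO RNA for Malat1. For Meg3 it was 1.89 and 2.49 against 1.92 and 1.92, and for Kcnq1ot1 0.194 and 0.286 against 0.446 and 0.328. The spread between genes was thus wider than that between genotypes within any of them. Introns are included in these lengths.

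Shared wild-type sites of the 3 genes were read against the coverage the KO offered. Of those with at least 20 reads in each wild-type library and at least 50 estimated reads in each KO library, 9 of 10 were in neither KO list (90.0%, Wilson 95% interval 59.6 to 98.2, for counting error only). The share over all genes was 80.9% (11130 of 13752), which lies inside that interval. This left out 5 shared Meg3 sites, at 109514045 to 109514369, whose deposited gene value spans the chromosome and gives no estimate, and 4 of these 5 were in at least 1 KO list. Over all genes, 70.7% of the 4488 sites without an estimate were missing from both KO lists (3172). With no minimum of estimated reads, these included, it was 13 of 18 (72.2%) against 81.3% over all genes, and where the mean wild-type level reached 0.2 it was 4 of 4 against 84.4%. By gene the counts were 5 of 6 in Malat1, 3 of 3 in Meg3 (5 of 9 with no minimum of estimated reads) and 1 of 1 in Kcnq1ot1. In the opposite direction 5 of 5 shared KO sites were in neither wild-type list, against 67.4% over all genes. So few sites do not show the members to differ from other genes, in either direction.

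Gene coverage, the coverage value deposited for each gene, was lower in the KO for Malat1 and Meg3 and higher for Kcnq1ot1, and none of the 3 passed the test. Without 1 library the log2 differences given next ranged from -0.85 to -0.33 for Malat1, from -0.55 to -0.13 for Meg3 and from 0.29 to 0.57 for Kcnq1ot1, each nearest to 0 without KO library 2. Malat1 was at 205 and 218 for wild type against 167 and 100.4 for KO, so both KO libraries were lower. Relative to the median gene of each library the log2 difference was -0.59 ± 0.20 (SE; limma adjusted p = 0.0987; 0.0379 to 0.403 over 10 alternatives). Meg3 was at 205 and 219.6 in wild-type organoids against 194 and 124 in KO organoids, again without overlap, with a log2 difference of -0.34 ± 0.19 (limma adjusted p = 0.308). It turned to 0.24 when the most frequent value in the span was used. That setting kept values that span the chromosome, so the 0.24 need not measure the coverage of Meg3. Such values held 35 of 59 Meg3 sites in wild-type library 1 and 34 of 60 in KO library 1. Kcnq1ot1 was at 24.6 and 27.5 in the wild-type pair against 31.7 and 33.2 in the KO pair, both KO libraries being higher, with a log2 difference of 0.43 ± 0.18 (limma adjusted p = 0.169). Over all 9920, 5.47% were called. Both KO libraries were below both wild-type libraries in 29.4% of them and above in 24.1%. In these bulk organoids fewer cells that express a gene and less RNA per cell cannot be told apart.

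**Figure D4:**
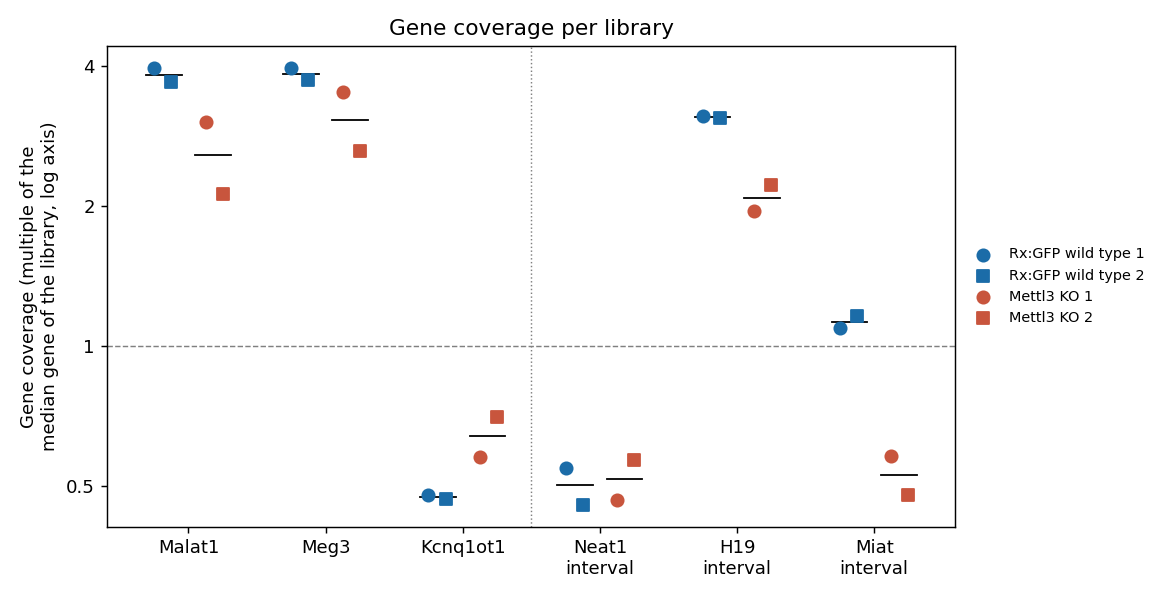
Gene coverage divided by that of the median gene in the same library (vertical log axis), with 1 point per library, a black bar at the mean of each group and a dashed line at the median gene; intervals are right of the dotted line. The Miat interval fell from 1.09 and 1.16 to 0.577 and 0.477 (limma adjusted p = 0.00551), while the Neat1 interval stood at 0.546 and 0.454 in wild-type RNA versus 0.466 and 0.566 in KO RNA.

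The 3 intervals, unlike the 3 genes placed by the rule, all had fewer sites in both KO libraries. Together they held 114 and 105 sites for wild type against 31 and 22 for KO (exact permutation p = 0.333). Over all genes 24.9% had fewer sites in both KO libraries. Requiring 50 reads a site left a mean difference of 0.5 for the Neat1 interval in place of -16.5, -3.0 for the H19 interval in place of -9.0 and -26.0 for the Miat interval in place of -57.5. The intervals were chosen after the data were seen, and that the RNA read in them is Neat1, H19 or Miat rests on RefSeq gene order.

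The Neat1 interval (chromosome 19, 5885020 to 5895299, minus strand) lies between Malat1 and Frmd8, where RefSeq has no gene but Neat1. It is 10280 bases long, against 20773 for Neat1 in RefSeq, so it covers only part of that gene. It begins 32314 bases from Malat1 and ends 42593 bases from it, where RefSeq has Neat1 from 22036 to 42808 bases. The interval held 24 and 15 sites in wild-type organoids against 4 and 2 in KO organoids. Its gene coverage was 28.2 and 26.7 in the wild-type pair against 25.7 and 26.8 in the KO pair, overlapping groups with a log2 difference of 0.04 ± 0.18 (limma adjusted p = 0.916). Sites were thus fewer in both KO libraries while coverage overlapped. The wild-type pair shared 4 positions, among them 5894469 at 0.409 and 0.364 with 22 reads in each library. None of the 4 was in a KO list, and all had too few reads for the share given above.

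The deposited conversion rate of the Neat1 interval moved with its sites. How it was computed is not given in the sources used here; by its name it was taken as the share of the adenosines of a gene that were read as G. It was 95.6% and 95.5% for wild type against 98.1% in each KO library, a gain of 2.57 percentage points. The unconverted remainder went from 4.45% and 4.46% to 1.87% and 1.90%, and the gap between groups was far wider than that within either. On the log2 odds scale the difference was 1.28 ± 0.21 (limma adjusted p = 0.137 over 9920 genes; 0.0197 to 0.328 over 7 alternatives), which missed the threshold. No gene passed it (0.0%), with 1973 (19.9%) at an unadjusted p under 0.05. The median gene was higher by 0.590 percentage points, and 691 of 9920 were higher by at least as much as the Neat1 interval, that interval included.

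No other member showed such a gap. Malat1 was converted at 96.5% and 96.8% for wild type against 97.3% and 97.0% for KO, and Meg3 at 95.5% and 96.1% against 96.5% and 96.2%. Both genes were higher in both KO libraries by less than the median gene, and 48.0% of genes were higher in both KO libraries. Centred on the median gene, the log2 odds difference of each was -0.10. Kcnq1ot1 was at 96.5% and 97.5% for wild type against 97.5% in each KO library, and the H19 interval at 95.8% and 96.4% against 97.2% and 96.0%, both with overlapping groups. The Miat interval was at 96.8% and 96.7% against 96.7% and 96.6%.

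**Figure D5:**
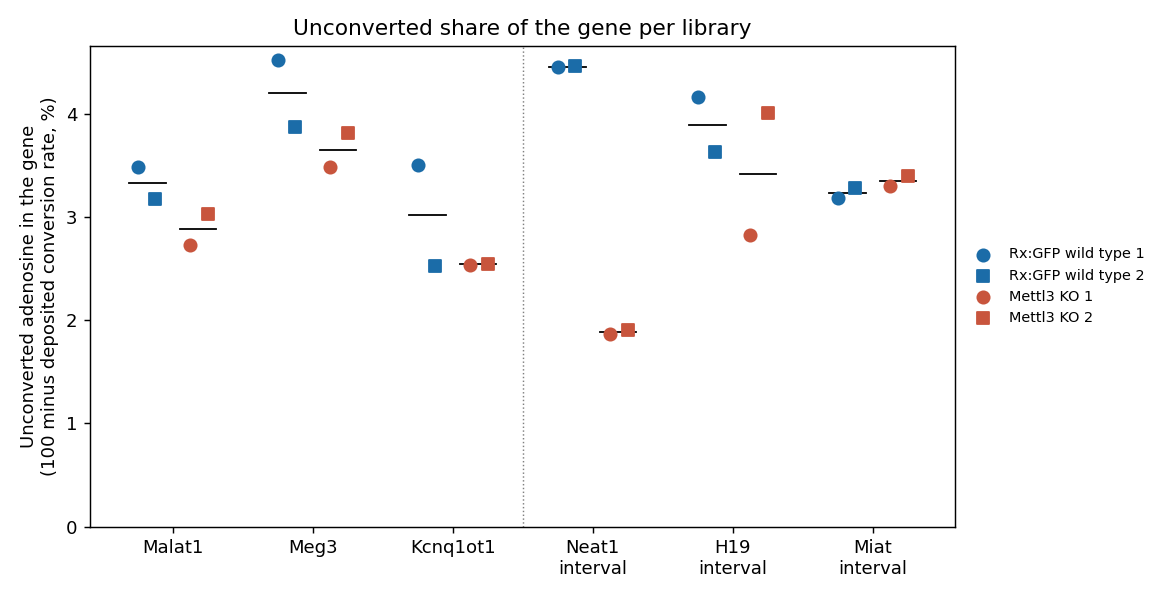
Unconverted adenosine of each gene or interval in percent (vertical axis, 100 minus the deposited conversion rate), with 1 point per library and a black bar at the mean of each group; intervals are right of the dotted line. The Neat1 interval stands apart, with 4.45% and 4.46% for wild type against 1.87% and 1.90% for KO.

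The Miat interval (chromosome 5, 112361105 to 112376218, minus strand) had fewer sites and lower coverage in the KO. Sites numbered 69 and 66 in wild-type RNA versus 13 and 7 in KO RNA. Gene coverage was 56.5 and 68.2 for wild type against 31.8 and 22.6 for KO, with both KO libraries lower, and the log2 difference of -1.10 ± 0.18 passed the test (limma adjusted p = 0.00551). The call was lost without KO library 2 (-0.96, limma adjusted p = 0.0687) and with the most frequent value in the interval (-1.11, limma adjusted p = 0.118). RefSeq places 4 further genes between the neighbours that bound this interval, and Miat was taken because the block begins 3235 bases from 1700028D13Rik, where RefSeq has 3226 bases to Miat. The interval taken as Miat was thus covered less in the KO in the main test, along with the eye field genes Six3 and Lhx2, and their part in this was not tested.

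At 112363549 the Miat interval had a shared wild-type site that KO library 1 also listed. Its level was 0.157 and 0.313 in wild-type RNA at 159 and 383 reads and 0.250 in KO library 1 at 56 reads, between the wild-type values. KO library 2 did not list it, where 95.1 reads were estimated. The other shared wild-type sites had at most 27.4 estimated KO reads and cannot be read as lost. The KO sites that remained had a median coverage of 35 and 19 reads and a median level of 0.292 and 0.737, against 0.188 and 0.216 for wild type. Both KO medians were thus higher, over sites with few reads, where the list needs at least 5 reads with A.

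The H19 interval (chromosome 7, 142129278 to 142131746, minus strand) surrounds Mir675, which RefSeq places inside H19. RefSeq also has Nctc1 and Gm33148 between the neighbours that bound it, Mrpl23 and Igf2. It held 21 and 24 sites in wild-type organoids against 14 and 13 in KO organoids, and its gene coverage was 162 and 183 in the wild-type pair against 108 and 105 in the KO pair. Both KO libraries were lower in both measures, with a log2 coverage difference of -0.58 ± 0.17 that missed the threshold (limma adjusted p = 0.0659; 0.0407 to 0.298 over 10 alternatives). The wild-type pair shared 1 site, 142130781, which lies 20 bases past the 3′ end of the Mir675 hairpin. Its level was 0.117 and 0.109 at 103 and 119 reads, close to the limit of the lists, and neither KO list held it, with 69.4 and 67.5 reads estimated. KO library 1 listed a position 13 bases away with 74 reads, so that stretch was read. No entry lay inside the hairpin of Mir675, although 17 entries of the interval carried its name.

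Other imprinted genes and noncoding RNAs were counted for context. Of 20 imprinted genes listed, 9 had a gene coverage in all 4 libraries; 4 fell, against 2.96% over all genes, and none rose, with a median log2 difference of -0.44 against -0.02 over all 9920. Those that fell were Cdkn1c, a cell cycle inhibitor silenced by Kcnq1ot1 on the paternal chromosome (-1.24 ± 0.19, limma adjusted p = 0.00359), Peg3 (-1.11), Nnat (-1.05) and Peg10 (-1.02). Igf2, the neighbour of H19, was at 0.983 and 1.12 times the median gene for wild type against 1.01 and 1.27 times for KO. Of 29 other long noncoding RNAs 7 were measured; Tug1 fell (-1.07 ± 0.17, limma adjusted p = 0.00553), 1 of 7 against 2.96% over all genes, none rose, and the median log2 difference was -0.55.

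Proteins that work with these RNAs were counted in the same way. Of 12 speckle and paraspeckle proteins 8 were measured and none was called, against 5.47% over all genes. Of the 8, 7 had a negative log2 difference and 1 a positive one, with a median of -0.32. The paraspeckle proteins Nono and Sfpq, partners of Neat1, were the lowest, at -0.46 and -0.51 (limma adjusted p = 0.162 and 0.0994). Pspc1, another paraspeckle protein, was at -0.16 (limma adjusted p = 0.637). Of 9 m6A writers and nuclear readers 6 were measured, and Ythdc1, the nuclear m6A reader, rose by 0.74 ± 0.18 (limma adjusted p = 0.0298), while the other 5 were not called. Over all genes 2.51% rose.

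Genes whose relative coverage was most like each member's over the 4 libraries were found by Euclidean distance of log2 coverage. They were Atp5j, Pnrc2 and Prdx6b for Malat1, Eif3h, Psmc2 and Mat2b for Meg3, and Has2, Usp25 and Prkce for Kcnq1ot1. The closest of each were at a distance of 0.14, 0.08 and 0.07. For the Neat1 interval they were Oxnad1, Bltp1 and Ly75, for the H19 interval Gtf2i, Zfp422 and Rab14, and for the Miat interval Decr1, Txndc15 and Epha4.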

How the data were processed

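GLORI libraries were made from fragmented poly(A) RNA, per the labels' protocols. For each library the authors deposited a list of called sites, with counts of reads with A or G and of reads with A, the level as a fraction, a p-value and adjusted p-value, and the coverage signal and conversion fraction of the gene, per the file headers. How these were computed is not given in the sources used here. Reads may be PCR copies, so intervals cover counting error only.

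The submitters' processing notes name mm10. Only 3.32% of 21473 features matched by symbol (of 29178) start within 1000 bases of their GRCm38 start, so coordinates are those of the lists, in a build not settled here. Sites and features share it: 121 of 121 sites inside 61 microRNA hairpins fell on an A of the RefSeq sequence. No genome was used, so sequence motifs at sites were not analysed here. Gene values spanning both strands of a chromosome were not used as gene coverage, except in the alternative that took the most frequent value in a feature. A gene block is a run of same-strand sites sharing 1 gene value in each library. Estimated KO coverage is the mean over wild-type libraries of site coverage times the KO over wild-type gene coverage.

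Sites in all 4 lists with at least 20 reads in each were tested with edgeR 4.0.16 (quasi-likelihood, a term per library), in R 4.3.3. Log2 gene coverage, centred on each library's median gene, and log2 odds of conversion were tested with limma 3.58.1. Adjusted p-values (Benjamini-Hochberg, threshold 0.05) cover all sites or genes. Site counts were compared by two-sided exact permutation tests. On simulated data with a log2 change of 2, 81.0% of 200 changed sites among 1557 and 80.0% of 200 changed genes among 9920 were recovered for level and coverage, and 49.0% for conversion. The log2 differences of the members were smaller, at most 1.28 (conversion of the Neat1 interval). Recovery of changes of that size was not simulated.

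The members and gene lists were chosen with earlier results of these data known. The site counts of 1 eye field marker are not reported here. The intervals and the conversion test were added after values were seen. Named sites were, per gene, up to 6 with the highest mean wild-type level among those in both wild-type lists with at least 20 reads in each, and up to 6 with the highest coverage in all 4 lists; positions outside this rule were chosen after their values were seen. These are all KO-shared positions, those in 1 library per group or in 1 library alone, and Neat1 positions under 20 reads. Alternatives were other minima of coverage, level and adjusted p, other tests, centrings and pseudocounts, a replicate block and leaving out each library.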

Additional observations from a re-analysis of the deposited data

How the results depend on the processing

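The mean difference of member sites, 17.5 more in the KO for Malat1, Meg3 and Kcnq1ot1, was 5.0 at a coverage of at least 50 reads, 1.5 at a level of at least 0.3, 1.5 for sites whose deposited feature is the gene itself and -65.5 with the 3 intervals, and 9.0 to 26.0 without 1 library. The share of shared wild-type sites absent from the KO, 90.0%, was 100% where the mean wild-type level reached 0.2 or 0.3 and 84.0% to 100% without 1 library.

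For gene coverage, 0 of 3 genes were called, and 1 of 6 with the intervals. Replicate differences were nearly uncorrelated between the groups (0.06 for levels and -0.03 for coverage). This cannot show whether libraries of equal number share a culture or run. With a replicate block 1 gene, Malat1, was called (limma adjusted p = 0.0379), as was the H19 interval (0.0407), which also passed among genes above the lower quartile (0.0412). The conversion of the Neat1 interval passed with the block (0.0197), as part of 387 genes called higher and 29 lower of 9920, against none without it; 17 and 2 were called without wild-type replicate 1 and 21 and 2 without wild-type replicate 2. Calls over all genes were 249 higher and 294 lower, 482 and 539 with the block, 104 and 327 without centring, 189 and 144 when centred on the upper quartile, 32 and 18 with the most frequent value in a feature, 33 and 53 without KO replicate 1, 31 and 30 without KO replicate 2, and 117 and 132 without wild-type replicate 2. With that most frequent value, which can be one that spans the chromosome, the Miat interval was not called (limma adjusted p = 0.118) and Meg3 turned to 0.24.

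Small differences changed sign. Meg3's summed level difference was 0.0227 by Fisher's exact test on summed counts and -0.18 to 0.13 without 1 library. The Neat1 interval's coverage difference was -0.068 without centring and -0.10 to 0.18 without 1 library. Centred on the median gene, the log2 odds of conversion were -0.10 for Malat1, -0.10 for Meg3, -0.0792 for Kcnq1ot1 and -0.10 for the H19 interval; without 1 library they ranged from -0.0105 to 0.48 for Kcnq1ot1 and from -0.0461 to 0.48 for the H19 interval. The cause was not tested. At 20 to 30 reads, as on Kcnq1ot1 and the Neat1 interval, the lists need 5 reads with A, so low levels there could not be seen.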
